A study of Mus musculus with 54 samples.

Results

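The 33 genes described here are targets of the transcription factor p53 that respond to DNA damage. They were chosen by name from the gene column of the deposited count table, as p53 targets outside the feedback regulators, the Bcl-2 family and its partners, the cyclin-dependent kinase inhibitors, the sestrins and the BTG genes. All 33 were found among 24421 genes, and all 33 passed the filter on low counts that left 14320 genes for testing. RNA was sequenced from hematopoietic stem cells (HSC), the marrow cells that renew all blood lineages. The mice were C57BL/6 animals with a ZsGreen reporter in Fgd5, a gene that marks HSC, and cells were sorted as wide-gated SLAM-LSK and reporter-positive. Each library came from 1 mouse. Mice were injected subcutaneously with dimethyl prostaglandin E2 (dmPGE2, a long-lived analogue of prostaglandin E2) or with ethanol as vehicle. Irradiation with 8.53 Gy, the median lethal dose, followed after 30 min. The labels state 35 µg dmPGE2, and also 3.5 µL of a 0.1 mg/ml stock, which do not match, so the dose is uncertain.

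The groups were irradiated dmPGE2 HSC at 1 h (8 libraries), irradiated vehicle HSC at 1 h (8), dmPGE2 HSC without radiation at 1 h (7), irradiated dmPGE2 HSC at 24 h (8), irradiated vehicle HSC at 24 h (8) and untreated HSC (15). Untreated mice received vehicle and no radiation; 8 belong to 1 h and 7 to 24 h, and they form a single pool because their columns carry no time. The 24 h columns carry no radiation label and were taken as irradiated because no other group of 24 h matches their number and treatment. No library at 24 h received dmPGE2 without radiation.

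p53 is held at a low level by Mdm2 and is stabilised after DNA breaks through the kinases Atm and Chek2. It then binds pairs of half-sites near its target genes and raises their transcription. The targets include death receptors, apoptosis factors, repair enzymes and brakes on the cell cycle, and in HSC their balance decides between death, arrest and survival after irradiation.

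Total counts per library ran from 15049364 to 26217041. All 9 HSC marker genes were detected in every group, with median summed levels of 2853 to 4757 CPM, which are read counts scaled to library size. In the irradiated dmPGE2 HSC of 24 h, libraries 5, 6 and 7 stood apart in a principal component analysis of all genes, and library 5 was the lowest of its group for 21 of the 33 members. Libraries 5, 6 and 7 are male, and without them library 8 is the only male of that group. Fits without them therefore mix the removal of outlying libraries with a change in the balance of the sexes. In the irradiated dmPGE2 HSC of 1 h, library 4 was the highest of its group for 11 members. Calls that change without these libraries are named beside the result. The labels name 7 of the untreated mice as female, whereas sex-linked genes gave 5 female columns. The 15 untreated columns carry 8 tags in their names, of which 7 occur in 2 columns, and the same tags recur in the 1 h groups. The 24 h columns carry other tags, each found in both sexes. Comparisons of 24 h libraries with untreated or 1 h libraries therefore cannot tell radiation or time apart from what differs between the tags. In all 7 same-tag pairs of untreated columns, sex-linked genes gave the same sex. What a tag stands for is not stated. Counts of same-tag columns differed beyond sampling noise, with a chi-square per gene of 18.619 to 42.964. In other pairs of untreated columns it was 22.191 to 86.526, an overlapping range. Of the 14 untreated columns whose tag occurs in 2 columns, 9 correlated best with the column of the same tag. An excess over sampling noise cannot separate different mice from repeat preparations of 1 source. It therefore does not decide whether same-tag columns are independent. All 15 columns were kept as separate libraries. If columns of 1 tag share a source, p-values against the untreated pool are too small.

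The p53 half-site consensus was searched in 300-base windows around the gene start, which RefSeq (GRCm38.p6) gives for 24 of the 33 members (250 bases before the start and 50 after it). The consensus reads the same on both strands and has 10 positions. An exact half-site lay in 9 of 24 member windows (37.5%) and in 2582 of 27025 windows of all genes (9.55%). A tandem site of 2 abutting half-sites with up to 2 mismatches lay in 3 of 24 member windows (12.5%) and in 106 of 27025 windows (0.392%). The sequences below are the tandem sites of Rps27l, Gtse1 and Ckap2 and the half-site of Fam212b, a member with a large response to radiation; capitals mark the site, and each line runs 5′ to 3′ on the gene's strand.
Rps27l: atggcGGGCTTGTTGAGACTTGTCCgggcg
Gtse1: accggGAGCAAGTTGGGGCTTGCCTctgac
Ckap2: tctgaAGACATGTCCTGACTTGTCAagcct
Fam212b: ctgtctgcccGGGCTTGTCTgccagcaggg
The Rps27l sequence is chr9:66946291-66946320 on the plus strand, in an intron of the counted gene, and its site begins at position -117 from the RefSeq start. The Gtse1 sequence is chr15:85859940-85859969 on the plus strand, in an exon, with the site beginning at -1. The Ckap2 sequence is chr8:22185998-22186027 on the minus strand, outside the counted gene, with the site beginning at -203. The Fam212b sequence is chr3:105705367-105705396 on the plus strand, in an intron of the counted gene, with the half-site beginning at -81. No match lay in the searched windows of Gdf15, Phlda3, Eda2r, Slc19a2 and Ddias, which also had large responses to radiation. Ckap2, with a tandem site, was not called with radiation and vehicle at 1 h. A link between site and response was not tested. These matches describe letters, and no binding was measured.

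Radiation with vehicle raised 23 of the 33 members at 1 h and lowered 0, against the untreated pool. Across all 14320 genes, 8.65% were called higher and 7.31% lower (edgeR quasi-likelihood test, calls at an adjusted p under 0.05). The median log2 fold change was 0.76 over the members and -0.0027 over all genes, and 15 members changed at least 2-fold. In 17 members every irradiated vehicle library lay above every untreated library, which held for 2% of all genes. With dmPGE2 given before radiation, 0 members were higher and 22 were lower than in irradiated vehicle HSC at 1 h, where 7.04% of all genes were higher and 7.77% lower. The median was -0.54 over the members and 0.0096 over all genes. In 14 members every irradiated dmPGE2 library lay below every irradiated vehicle library, against 2.71% of all genes, and in 0 members above, against 1.68%. Both comparisons use the same irradiated vehicle libraries, so the values of each are given side by side below.

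**Figure D1:**
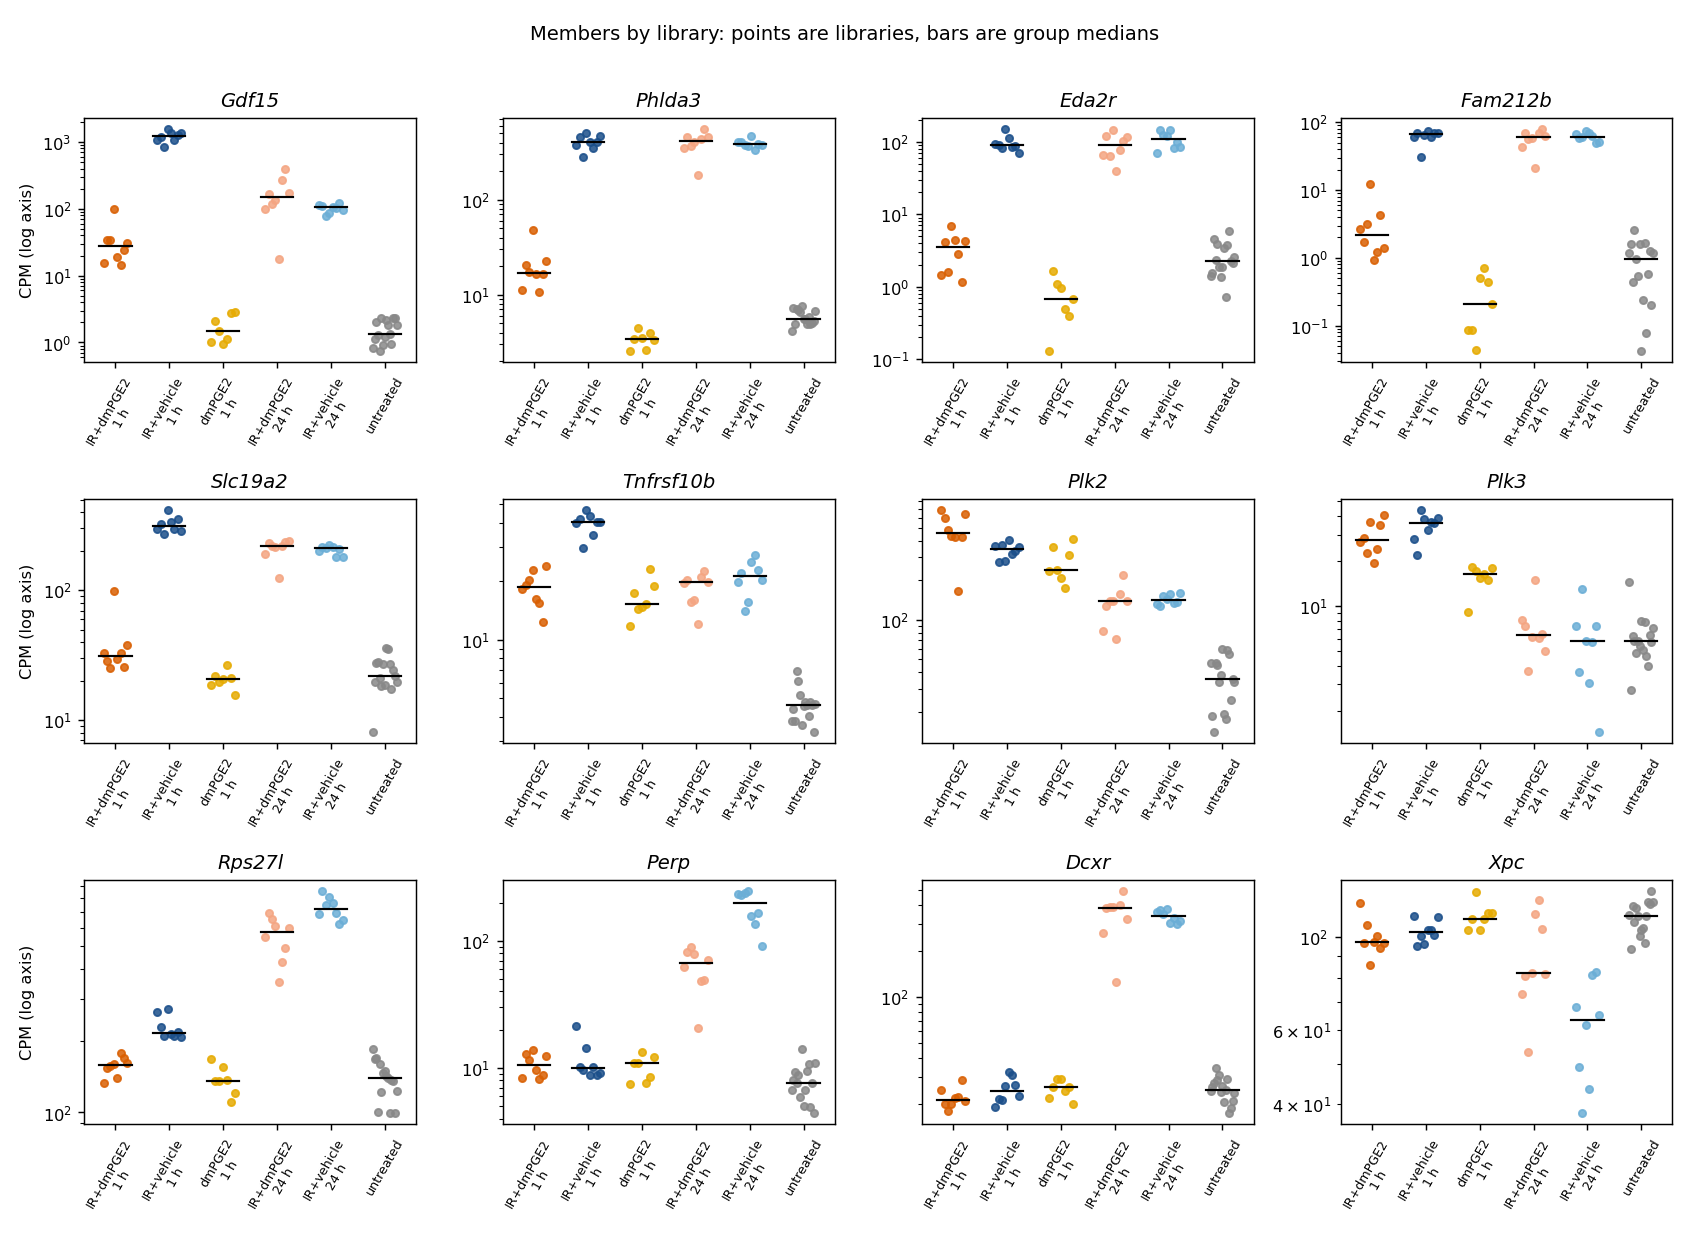
Level of 12 members in every library, in CPM on a log axis, by group; points are libraries and bars are group medians. Gdf15, Phlda3, Eda2r, Fam212b and Slc19a2 were high in irradiated vehicle HSC at 1 h and lower in irradiated dmPGE2 HSC, whereas Plk2 overlapped between these groups and Perp and Dcxr were high only in the 24 h groups.

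Among the death receptors and membrane proteins, 3 of 4 members rose with radiation and vehicle at 1 h, and the same number were lower with dmPGE2. Eda2r, a receptor of the tumour necrosis factor family that binds ectodysplasin A2, had 1.15, 3.52 and 6.88 CPM (lowest, median and highest library) in irradiated dmPGE2 HSC, 69.03, 89.1 and 149 CPM in irradiated vehicle HSC, 0.1305, 0.677 and 1.63 CPM with dmPGE2 alone, and 0.713, 2.27 and 5.88 CPM in untreated HSC. Irradiated vehicle HSC were the high group and overlapped with none of the other 3. The log2 fold change was 5.18 (SE 0.27, adjusted p 2.17e-22) for radiation with vehicle and -4.84 (SE 0.35, adjusted p 2.25e-16) for dmPGE2 in irradiated HSC. Tnfrsf10b, the receptor for the death ligand TRAIL, had 12.4, 18.8 and 24.1 CPM in irradiated dmPGE2 HSC, 29.6, 40.4 and 46.6 CPM in irradiated vehicle HSC, 11.7, 15.2 and 23.3 CPM with dmPGE2 alone, and 3.33, 4.59 and 6.89 CPM in untreated HSC. Both dmPGE2 groups overlapped with each other and lay between untreated and irradiated vehicle HSC. The log2 fold change was 3.11 (SE 0.13, adjusted p 6.11e-28) for radiation with vehicle, -1.09 (SE 0.15, adjusted p 6.91e-08) for dmPGE2 in irradiated HSC and 1.84 (SE 0.13, adjusted p 8.1e-17) for dmPGE2 without radiation. Fas, the receptor of Fas ligand, rose by a log2 fold change of 1.27 (SE 0.19) with radiation and was lower by -1.90 (SE 0.23) with dmPGE2. Perp, a membrane protein of cell junctions with a part in p53-driven apoptosis, was not called at 1 h, at 0.53 (SE 0.20, adjusted p 0.0554) with radiation and -0.11 (SE 0.23) with dmPGE2.

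All 8 members that act in apoptosis and survival inside the cell rose with radiation and vehicle at 1 h, and all 8 were lower when dmPGE2 had been given before radiation. Phlda3, which competes with the kinase Akt for membrane lipids, had 10.7, 17.0 and 48.5 CPM in irradiated dmPGE2 HSC, 279, 407 and 505 CPM in irradiated vehicle HSC, 2.57, 3.43 and 4.51 CPM with dmPGE2 alone, and 4.13, 5.59 and 7.63 CPM in untreated HSC. The irradiated dmPGE2 libraries lay above both groups without radiation and below every irradiated vehicle library. The log2 fold change was 6.11 (SE 0.17, adjusted p 4.33e-35) for radiation with vehicle and -4.31 (SE 0.21, adjusted p 7.66e-24) for dmPGE2 in irradiated HSC. Ddias, a suppressor of apoptosis after DNA damage, had 12.8, 20.4 and 39.8 CPM in irradiated dmPGE2 HSC, 143, 169 and 193 CPM in irradiated vehicle HSC, 9.88, 13.7 and 17.5 CPM with dmPGE2 alone, and 9.57, 17.7 and 22.4 CPM in untreated HSC. Irradiated dmPGE2 HSC overlapped with the 2 groups without radiation and not with irradiated vehicle HSC, with log2 fold changes of 3.32 (SE 0.15) for radiation with vehicle and -2.92 (SE 0.18) for dmPGE2 in irradiated HSC. Trp53inp1, a stress protein that promotes p53-dependent death, had 21.4, 45.1 and 80.7 CPM in irradiated dmPGE2 HSC, 478, 605 and 761 CPM in irradiated vehicle HSC, 29.9, 37.3 and 47.3 CPM with dmPGE2 alone, and 38.3, 60.99 and 105 CPM in untreated HSC. Irradiated vehicle HSC alone stood apart, and the log2 fold changes were 3.28 (SE 0.15) for radiation with vehicle and -3.72 (SE 0.20) for dmPGE2 in irradiated HSC.

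The other 5 members of this group had smaller changes. Aen, a nuclease that enhances apoptosis, changed by a log2 fold change of 1.26 (SE 0.09) with radiation and -1.06 (SE 0.11) with dmPGE2. Zmat3, an RNA-binding zinc finger protein, changed by 1.28 (SE 0.20) and -1.45 (SE 0.24) in the same comparisons; its exons overlap 162 bases of 4930429B21Rik on the opposite strand, and the kit marks no strand. Ei24, a protein of the endoplasmic reticulum membrane, changed by 0.67 (SE 0.07) and -0.69 (SE 0.08), and Abhd4, a lipid hydrolase, by 0.25 (SE 0.06) and -0.28 (SE 0.07). Rps27l, a close copy of the ribosomal protein gene Rps27, changed by 0.72 (SE 0.10) and -0.54 (SE 0.11). How reads that match both copies were counted is not given in the sources used here, so the level of Rps27l is uncertain.

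Gdf15, a secreted stress cytokine of the transforming growth factor beta superfamily, had the largest change of the 33 members. It had 14.2, 27.4 and 99.9 CPM in irradiated dmPGE2 HSC, 842, 1242 and 1556 CPM in irradiated vehicle HSC, 0.949, 1.47 and 2.88 CPM with dmPGE2 alone, and 0.749, 1.35 and 2.35 CPM in untreated HSC. The 2 groups without radiation overlapped, and the irradiated groups were apart from them and from each other. The log2 fold change was 9.61 (SE 0.35, adjusted p 3.32e-28) for radiation with vehicle and -5.17 (SE 0.38, adjusted p 1.11e-15) for dmPGE2 in irradiated HSC. Of the long non-coding RNAs, Trp53cor1 (lincRNA-p21, transcribed next to Cdkn1a) had 1.94, 3.18 and 5.16 CPM in irradiated dmPGE2 HSC, 5.20, 7.13 and 12.9 CPM in irradiated vehicle HSC, 2.67, 3.25 and 4.61 CPM with dmPGE2 alone, and 1.13, 2.64 and 6.87 CPM in untreated HSC. Irradiated vehicle HSC were highest and overlapped with untreated HSC, and the log2 fold changes were 1.44 (SE 0.20) for radiation with vehicle and -1.31 (SE 0.23) for dmPGE2 in irradiated HSC. Pvt1, the non-coding neighbour of Myc, was not called in either comparison, at -0.19 (SE 0.25) and 0.38 (SE 0.29).

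Of the 5 members for DNA repair, damage tolerance and nucleotide supply, 2 rose with radiation and vehicle at 1 h and 1 of these was lower with dmPGE2. Ercc5, the endonuclease that cuts 3′ of a lesion in nucleotide excision repair, had 15.9, 28.1 and 36.7 CPM in irradiated dmPGE2 HSC, 23.0, 31.6 and 36.8 CPM in irradiated vehicle HSC, 14.4, 22.7 and 27.4 CPM with dmPGE2 alone, and 9.13, 14.6 and 22.1 CPM in untreated HSC. The irradiated groups overlapped with each other, at a log2 ratio of -0.20 with an SE of 0.18 (adjusted p 0.54) for dmPGE2, while radiation with vehicle gave 0.96 (SE 0.15, adjusted p 1.86e-06). Polk, a polymerase that copies past damaged bases, had 13.04, 17.1 and 26.6 CPM in irradiated dmPGE2 HSC, 22.3, 34.8 and 39.7 CPM in irradiated vehicle HSC, 10.9, 15.4 and 18.4 CPM with dmPGE2 alone, and 13.5, 21.4 and 33.5 CPM in untreated HSC. All neighbouring groups overlapped, with log2 fold changes of 0.61 (SE 0.13) for radiation with vehicle and -0.89 (SE 0.16) for dmPGE2 in irradiated HSC. Xpc and Ddb2, which recognise distorted DNA at the start of nucleotide excision repair, and Rrm2b, the p53-inducible subunit of ribonucleotide reductase, were not called at 1 h with radiation and vehicle, at -0.11 (SE 0.10), -0.16 (SE 0.17) and 0.40 (SE 0.18).

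Of the 6 members tied to mitosis, microtubules and kinases, 5 rose with radiation and vehicle at 1 h and 3 were lower with dmPGE2. Fam212b (Inka2, an inhibitor of the kinase Pak4) had 0.923, 2.20 and 12.4 CPM in irradiated dmPGE2 HSC, 30.2, 66.6 and 75.0 CPM in irradiated vehicle HSC, 0.0433, 0.212 and 0.720 CPM with dmPGE2 alone, and 0.0427, 0.949 and 2.55 CPM in untreated HSC. Irradiated vehicle HSC overlapped with no other group, and the log2 fold changes were 6.07 (SE 0.37) for radiation with vehicle and -4.16 (SE 0.44) for dmPGE2 in irradiated HSC. Gtse1, a microtubule protein that binds p53, changed by 3.17 (SE 0.16) and -2.86 (SE 0.20), and Psrc1, a spindle protein, by 0.49 (SE 0.14) and -0.52 (SE 0.17). The rise of Psrc1 lost its call when untreated columns of 1 tag were summed (adjusted p 0.0647). Ckap2, another spindle protein, was not called in either, at 0.16 (SE 0.13) and -0.09 (SE 0.15).

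Plk2 and Plk3, the stress-induced polo-like kinases, rose with radiation and vehicle at 1 h and were not called between dmPGE2 and vehicle in irradiated HSC. Plk2 had 165, 462 and 684 CPM in irradiated dmPGE2 HSC, 274, 346 and 407 CPM in irradiated vehicle HSC, 176, 240 and 415 CPM with dmPGE2 alone, and 14.02, 35.7 and 59.8 CPM in untreated HSC. The 3 treated groups overlapped with each other and all lay above untreated HSC. The log2 fold change was 3.21 (SE 0.21, adjusted p 1.38e-18) for radiation with vehicle, 0.52 (SE 0.24, adjusted p 0.151) for dmPGE2 in irradiated HSC and 2.92 (SE 0.21, adjusted p 3.64e-16) for dmPGE2 without radiation. Plk3 had 19.3, 27.8 and 40.5 CPM in irradiated dmPGE2 HSC, 22.003, 36.1 and 43.6 CPM in irradiated vehicle HSC, 9.13, 16.4 and 18.3 CPM with dmPGE2 alone, and 2.76, 5.85 and 14.4 CPM in untreated HSC. The irradiated groups overlapped with each other and lay above both groups without radiation. The log2 fold change was 2.45 (SE 0.22, adjusted p 3.01e-13) for radiation with vehicle, -0.24 (SE 0.26, adjusted p 0.637) for dmPGE2 in irradiated HSC and 1.31 (SE 0.23, adjusted p 3.07e-05) for dmPGE2 without radiation. The exons of Plk3 overlap 76 bases of Tctex1d4 on the opposite strand.

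Of the 7 members for transport, metabolism and trafficking, 3 rose with radiation and vehicle at 1 h and 5 were lower with dmPGE2. Slc19a2, a thiamine transporter, had 25.1, 31.3 and 99.3 CPM in irradiated dmPGE2 HSC, 271, 313 and 414 CPM in irradiated vehicle HSC, 15.8, 20.8 and 26.6 CPM with dmPGE2 alone, and 8.13, 22.1 and 35.8 CPM in untreated HSC. Irradiated vehicle HSC stood apart from the other 3 groups, at log2 fold changes of 3.79 (SE 0.17) for radiation with vehicle and -3.05 (SE 0.21) for dmPGE2 in irradiated HSC. Rap2b, a small GTPase, had 9.76, 13.997 and 17.7 CPM in irradiated dmPGE2 HSC, 31.7, 39.0 and 42.3 CPM in irradiated vehicle HSC, 11.9, 16.01 and 21.4 CPM with dmPGE2 alone, and 16.4, 22.1 and 32.5 CPM in untreated HSC. Irradiated vehicle and untreated HSC overlapped at the edge, and the log2 fold changes were 0.76 (SE 0.11) for radiation with vehicle and -1.48 (SE 0.13) for dmPGE2 in irradiated HSC. Bloc1s2, a subunit of a complex that builds lysosome-related organelles, changed by 0.49 (SE 0.08) and -0.50 (SE 0.10). Dcxr (a sugar and dicarbonyl reductase), Ephx1 (microsomal epoxide hydrolase), Ak1 (adenylate kinase) and Cgrrf1 (a RING finger protein) were not called with radiation at 1 h and ranged between -0.00 for Dcxr and 0.24 for Ephx1. Of these, Ephx1 and Cgrrf1 were lower with dmPGE2 in irradiated HSC, at -0.51 (SE 0.18) and -0.35 (SE 0.12); the call of Ephx1 was lost in a fit of the 2 groups alone (adjusted p 0.114).

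With dmPGE2 given beforehand, irradiated HSC differed from non-irradiated dmPGE2 HSC in 5 members, all higher, at 1 h. Across all genes 0.356% were called higher and 0.0209% lower. The 5 were Gdf15 at a log2 ratio of 4.27 with an SE of 0.42 (adjusted p 1.92e-10), Fam212b at 3.54 (SE 0.56, adjusted p 3.71e-05), Phlda3 at 2.58 (SE 0.22, adjusted p 3.96e-13), Eda2r at 2.12 (SE 0.39, adjusted p 0.000932) and Slc19a2 at 0.91 (SE 0.21, adjusted p 0.0171). Every irradiated library lay above every non-irradiated one for Gdf15, Phlda3, Fam212b and Plk3, against 0.321% of all genes, and below for 0 members, against 0.0698%. The call of Slc19a2 rests on library 4 of irradiated dmPGE2 HSC, which had 99.3 CPM where the other 7 libraries had 25.1 to 37.9 CPM: without it the log2 fold change was 0.55 (adjusted p 0.308), and the other 4 calls held. In a fit of these 2 groups alone, Eda2r (2.11, adjusted p 0.0516) and Slc19a2 (0.90, adjusted p 0.262) lost their call and Plk3 gained one (0.89, adjusted p 0.0141). The median over the 33 members was 0.08.

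**Figure D2:**
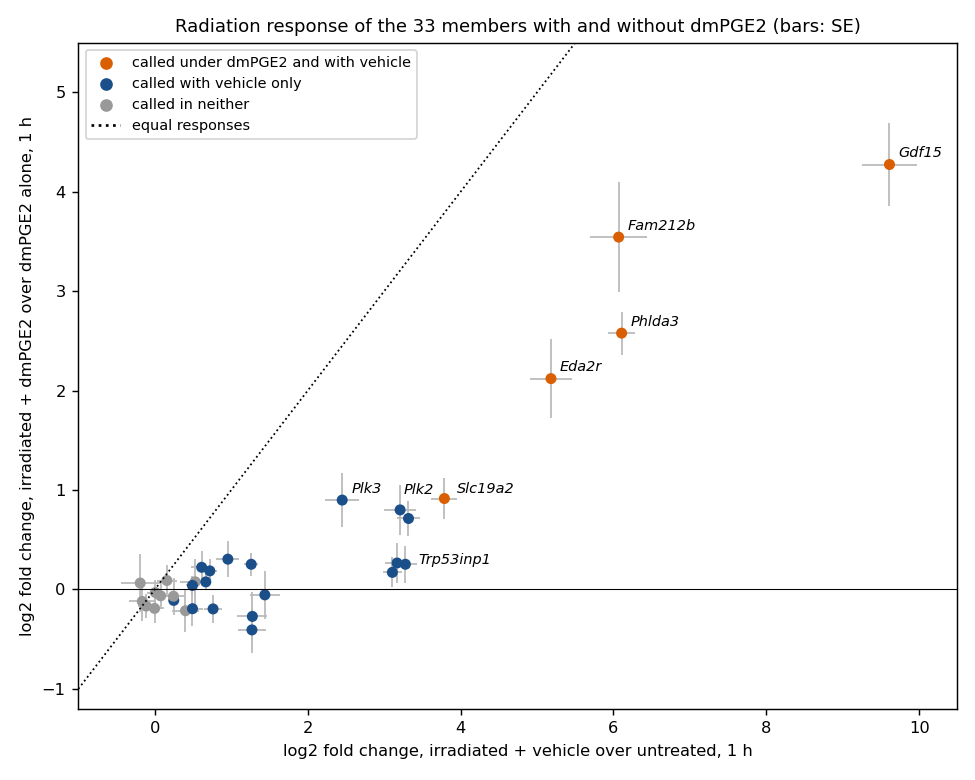
Log2 fold change of the 33 members at 1 h, irradiated dmPGE2 over dmPGE2 alone (vertical axis) and irradiated vehicle over untreated (horizontal axis), with SE bars; the dotted line marks equal responses. Gdf15 lies at 4.27 against 9.61 and Phlda3 at 2.58 against 6.11, and the members that rose with vehicle lie below the line.

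The difference between these radiation responses was tested directly as dmPGE2 by radiation at 1 h. The response was smaller under dmPGE2 in 20 of 33 members and larger in 0, where 1.8% of all genes had a lower and 1.17% a higher value. The largest were Gdf15 at -5.34 (SE 0.52, adjusted p 7.02e-11), Phlda3 at -3.53 (SE 0.26, adjusted p 2.32e-15), Eda2r at -3.06 (SE 0.49, adjusted p 1.72e-05) and Trp53inp1 at -3.02 (SE 0.24, adjusted p 2.44e-14). Plk2 (-2.41, SE 0.32) and Plk3 (-1.55, SE 0.35) were also among the 20, and their level rose with dmPGE2 alone. In mean CPM, the rise with radiation under dmPGE2 was 2.63% of that with vehicle for Gdf15 and 4.26% for Phlda3, but 68.3% for Plk2, 48.1% for Plk3 and 34.4% for Ercc5. Ercc5 (-0.65, SE 0.24, adjusted p 0.15), Polk (-0.39, SE 0.21, adjusted p 0.432) and Psrc1 (-0.69, SE 0.22, adjusted p 0.0869) rose with radiation and vehicle and did not pass the test of the difference. The call of Bloc1s2 was lost without library 4 of irradiated dmPGE2 HSC (adjusted p 0.0661), and those of Bloc1s2 (0.062) and Rps27l (0.0522) when untreated columns of 1 tag were summed. Fam212b lost its call with no filter on low counts (adjusted p 0.0546) and in a fit of the groups compared alone (0.074).

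Without radiation, dmPGE2 raised 3 members and lowered 6 at 1 h, against 5.28% of all genes higher and 5.82% lower. The 3 higher were Tnfrsf10b, Plk2 and Plk3, described above, and for Tnfrsf10b and Plk2 every dmPGE2 library lay above every untreated library (1.49% of all genes). The 6 lower were Eda2r at a log2 ratio of -1.78 with an SE of 0.37 (adjusted p 0.000339), Fam212b at -1.64 (SE 0.55, adjusted p 0.0418), Phlda3 at -0.78 (SE 0.19, adjusted p 0.0033), Trp53inp1 at -0.70 (SE 0.17, adjusted p 0.00253), Rap2b at -0.52 (SE 0.12, adjusted p 0.00207) and Polk at -0.50 (SE 0.15, adjusted p 0.0152). All 6 overlapped with untreated HSC. The call of Fam212b, present at under 3 CPM in both groups, was lost with no filter on low counts (adjusted p 0.054) and in a fit of the 2 groups alone (0.0949).

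**Figure D3:**
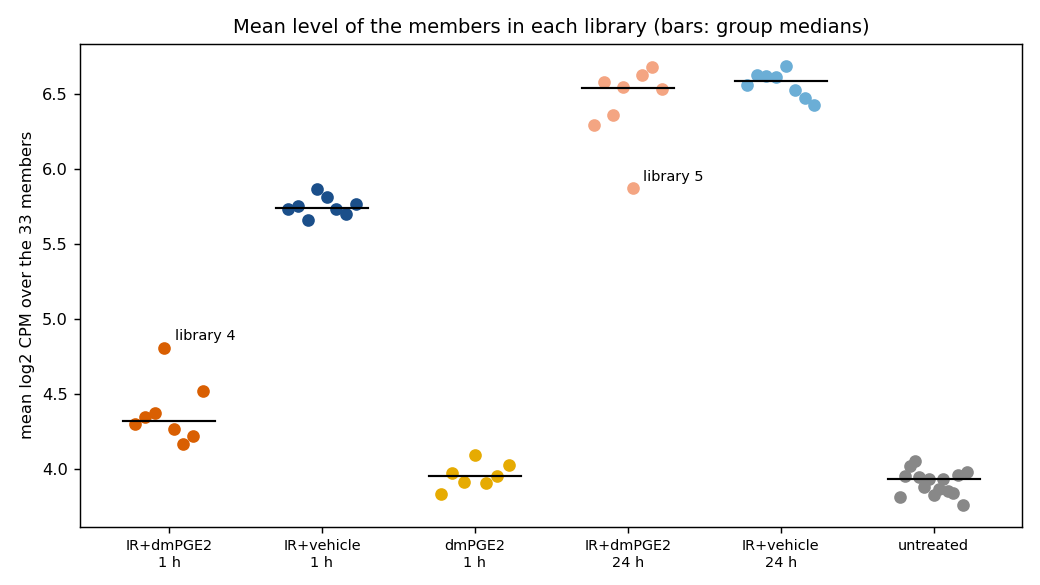
Mean log2 CPM over the 33 members in each library, by group, with bars at the group medians. At 1 h irradiated dmPGE2 HSC averaged 4.38 ± 0.20 and irradiated vehicle HSC 5.75 ± 0.06 (SD, n = 8 each), against 3.91 ± 0.08 in 15 untreated libraries; at 24 h irradiated dmPGE2 HSC averaged 6.44 ± 0.26 and irradiated vehicle HSC 6.57 ± 0.09, with library 5 lowest at 5.87.

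At 24 h, 29 of 33 members were higher and 2 lower in irradiated vehicle HSC than in the untreated pool. No untreated column carries a tag of the 24 h columns, so radiation and tag cannot be told apart here. Across all genes 23.3% were called higher and 26.5% lower, and the median log2 fold change was 2.59 over the members and -0.06 over all genes. In 28 members every irradiated vehicle library lay above every untreated library (7.37% of all genes), and in 1 every library lay below (3.21% of all genes). The rises were largest for Phlda3 at 6.05 (SE 0.17), Fam212b at 6.05 (SE 0.37), Gdf15 at 6.03 (SE 0.32), Eda2r at 5.35 (SE 0.27) and Zmat3 at 5.03 (SE 0.20). Xpc and Ddb2 were lower, at -0.86 (SE 0.10, adjusted p 9.09e-10) for Xpc and -0.42 (SE 0.17, adjusted p 0.0377) for Ddb2. Rrm2b (-0.09, SE 0.18) and Plk3 (-0.08, SE 0.24) were not called.

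Markers of other cells moved in this comparison too. The 4 megakaryocyte markers summed to a median of 792 CPM (676 to 1538) in irradiated vehicle HSC at 24 h and 311 CPM (186 to 408) in untreated HSC, and the 4 T and NK cell markers to 120 CPM (94.3 to 194) at 24 h and 61.1 CPM (29.9 to 111) in untreated HSC. The 8 neutrophil markers summed to 101.3 CPM (86.9 to 522) at 24 h and 544 CPM (253 to 1667) in untreated HSC, and the 3 markers of cells that the sort removes to 17.5 CPM (13.8 to 37.1) at 24 h and 60.3 CPM (36.0 to 94.4) in untreated HSC. Among them, Pf4 had medians of 229 CPM at 24 h and 45.9 CPM in untreated HSC, Mpo 5.35 CPM at 24 h and 239 CPM in untreated HSC, and Flt3 7.39 CPM at 24 h and 42.95 CPM in untreated HSC. Against the neutrophil sum, Ltf had 4.84 CPM at 24 h and 1.55 CPM in untreated HSC, and S100a8 had 4.13 and 3.92 CPM. Most of the T and NK cell sum was Nkg7, at 111.6 CPM at 24 h and 59.8 CPM in untreated HSC. Cd3e and Cd3g had medians under 1 CPM in both groups. The 9 HSC markers summed to 2853 CPM (2429.5 to 3378) at 24 h and 4342 CPM (3547 to 5325) in untreated HSC. Ly6a went against this sum, with medians of 704 CPM at 24 h and 332 CPM in untreated HSC. The part of these shifts in the members' values was not tested, and in bulk RNA a change in the number of cells of a type and in RNA per cell cannot be told apart.

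**Figure D4:**
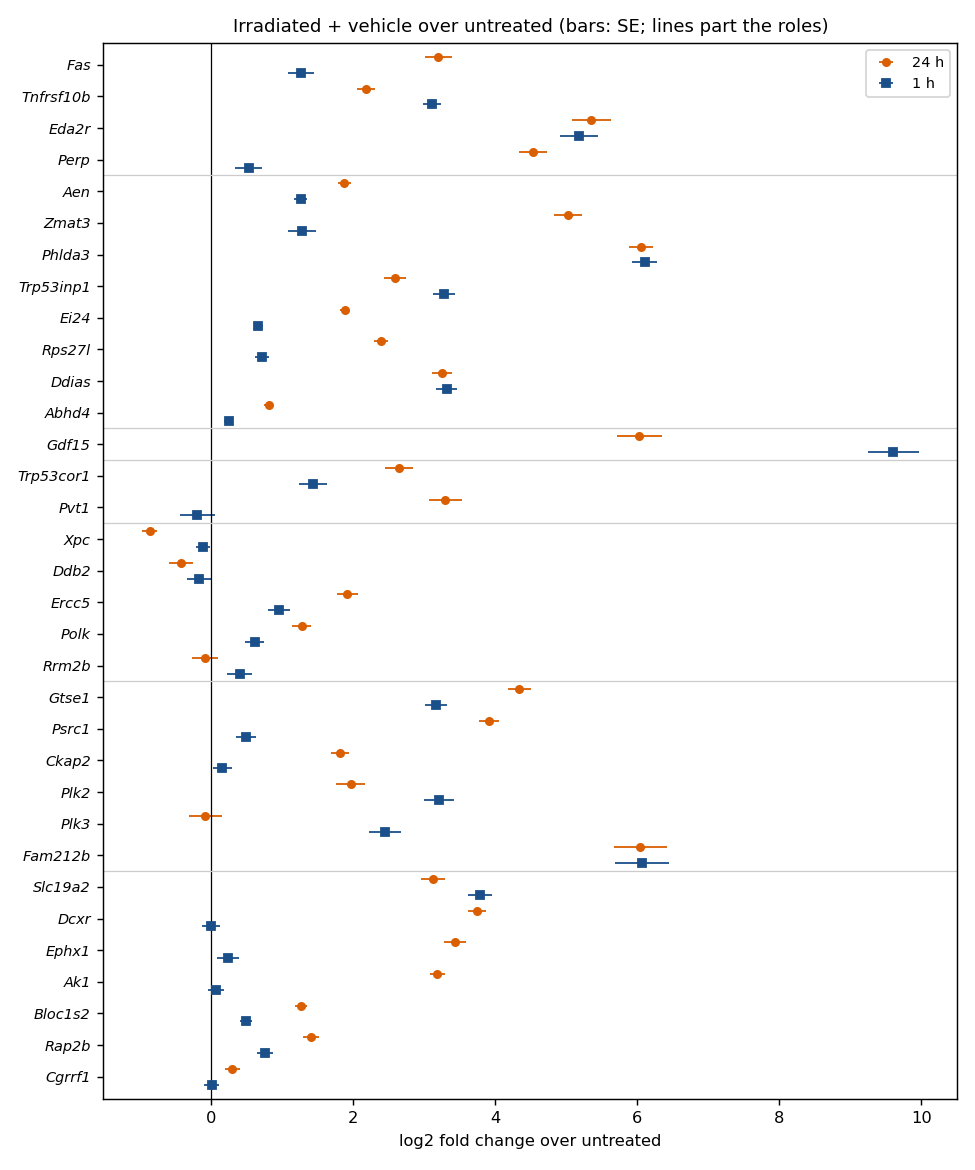
Log2 fold change of each member in irradiated vehicle HSC over untreated HSC at 24 h and at 1 h, with SE bars, ordered by role. Perp, Dcxr, Ephx1 and Ak1 lie above 3 at 24 h and near or below 0.53 at 1 h, and Plk3 lies at -0.08 at 24 h and 2.45 at 1 h.

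Between irradiated vehicle HSC of 24 h and of 1 h, 20 members were higher at 24 h and 8 lower, where 23.4% of all genes were higher and 27.5% lower. The count of lower members is near the share over all genes, so it is not read as a result about the members as a list. Time and tag cannot be told apart in this comparison either. Every 24 h library lay above every 1 h library in 18 members (11% of all genes) and below in 7 (8.52%). The largest rises were Perp at a log2 fold change of 4.003 (SE 0.25), Zmat3 at 3.75 (SE 0.24), Dcxr at 3.74 (SE 0.16), Pvt1 at 3.49 (SE 0.30), Psrc1 at 3.42 (SE 0.18), Ephx1 at 3.19 (SE 0.19) and Ak1 at 3.11 (SE 0.14). Dcxr had 302, 339 and 374 CPM at 24 h, against 19.4, 24.5 and 32.4 CPM at 1 h and 17.6, 24.7 and 34.6 CPM in untreated HSC; the 1 h and untreated libraries overlapped and the 24 h libraries lay above both. Pvt1 had 19.5, 27.8 and 40.7 CPM at 24 h, against 0.883, 3.01 and 3.84 CPM at 1 h and 1.26, 2.95 and 5.45 CPM in untreated HSC, which gives the same order of groups.

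The 8 members lower at 24 h than at 1 h were Gdf15, Plk3, Plk2, Tnfrsf10b, Xpc, Trp53inp1, Slc19a2 and Rrm2b. Gdf15 had 77.8, 106 and 120 CPM at 24 h, against 842, 1242 and 1556 CPM at 1 h, a log2 ratio of -3.58 with an SE of 0.35 (adjusted p 4.9e-12). All libraries of 24 h were below those of 1 h and above those of untreated HSC. Plk3 had 1.45, 5.82 and 13.03 CPM at 24 h, against 22.003, 36.1 and 43.6 CPM at 1 h, a log2 ratio of -2.53 with an SE of 0.28 (adjusted p 6.1e-11), and its 24 h libraries overlapped with untreated HSC. Plk2 had 127, 142 and 160 CPM at 24 h, below every 1 h library and above every untreated library, at -1.24 (SE 0.24) against 1 h. Tnfrsf10b changed by -0.92 (SE 0.15), Trp53inp1 by -0.69 (SE 0.18) and Slc19a2 by -0.66 (SE 0.20) between the times, and all 3 remained above untreated HSC in every library. Eda2r (0.17, SE 0.29), Phlda3 (-0.05, SE 0.18), Ddias (-0.07, SE 0.17) and Fam212b (-0.02, SE 0.38) were not called between the times.

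The damage recognition factors Xpc and Ddb2 were the members called lower than untreated HSC in irradiated vehicle HSC at 24 h. Of these, only Xpc was also called lower at 24 h than at 1 h. Xpc had 38.1, 63.6 and 82.7 CPM in irradiated vehicle HSC at 24 h, against 95.2, 103 and 112 CPM at 1 h and 93.8, 112 and 128 CPM in untreated HSC. Every 24 h library was below every library of the other 2 groups, and the log2 fold change against 1 h was -0.75 (SE 0.12, adjusted p 2.87e-07). Ddb2 had 4.53, 7.96 and 12.3 CPM at 24 h and 8.29, 9.75 and 14.4 CPM in untreated HSC, which overlapped; its exons overlap 431 bases of Acp2 on the opposite strand, and its call was lost when untreated columns of 1 tag were summed (adjusted p 0.0829). Rrm2b had 7.51, 10.95 and 22.7 CPM at 24 h and 12.9, 17.7 and 23.7 CPM at 1 h, which overlapped, at a log2 ratio of -0.49 with an SE of 0.20 (adjusted p 0.0411), a call lost in a fit of these 2 groups alone (adjusted p 0.0807). Ercc5 and Polk rose at 24 h by 1.92 (SE 0.15) and 1.28 (SE 0.13) over untreated HSC. Levels per kilobase of exon put Rps27l first of the 33 in irradiated vehicle HSC at 24 h (1566 CPM per kb) and in untreated HSC (298), and Gdf15 first in irradiated vehicle HSC at 1 h (1128).

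At 24 h, dmPGE2 and vehicle differed in few members of irradiated HSC: 1 was higher and 5 were lower with dmPGE2, against 12.4% of all genes higher and 11.5% lower, so these counts are not read as a result about the members as a list. The median was -0.07 over the members and 0.03 over all genes. In 2 members, Perp and Psrc1, every dmPGE2 library was below every vehicle library (1.28% of all genes). Perp had 20.5, 66.8 and 89.5 CPM in irradiated dmPGE2 HSC, against 90.5, 197 and 245 CPM in irradiated vehicle HSC, which gives -1.57 (SE 0.22, adjusted p 9.55e-07). Within females it ran from 62.7 to 89.5 CPM with dmPGE2 and from 229 to 245 CPM with vehicle, and within males from 20.5 to 70.96 CPM with dmPGE2 and from 90.5 to 165 CPM with vehicle (4 mice each). The treatments did not overlap within either sex, and with sex as a term no member changed its call. The difference between the sexes was noticed after the values were seen and was not tested.

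Psrc1 had 59.5, 112 and 123 CPM in irradiated dmPGE2 HSC and 147, 154 and 176 CPM in irradiated vehicle HSC at 24 h, a log2 ratio of -0.66 with an SE of 0.16 (adjusted p 0.002). Ckap2 had 40.0, 58.2 and 77.7 CPM with dmPGE2 and 74.6, 89.7 and 142 CPM with vehicle, with a narrow overlap, at -0.74 (SE 0.15, adjusted p 0.000254). Rps27l had 355, 572 and 694 CPM with dmPGE2 and 621, 720 and 852 CPM with vehicle, and Ak1 had 222, 345 and 402 CPM with dmPGE2 and 381, 429 and 471 CPM with vehicle. Both overlapped, at -0.41 (SE 0.11, adjusted p 0.00564) for Rps27l and -0.37 (SE 0.13, adjusted p 0.0252) for Ak1. Xpc was the member higher with dmPGE2, with 53.3, 81.9 and 122 CPM against 38.1, 63.6 and 82.7 CPM with vehicle, at 0.54 (SE 0.12, adjusted p 0.000502) and with overlapping groups. Without libraries 5 to 7 of irradiated dmPGE2 HSC, Perp (-1.28, adjusted p 0.000258) and Ckap2 (-0.55, adjusted p 0.0265) kept their call, whereas Psrc1 (-0.42, adjusted p 0.113), Rps27l (-0.23, adjusted p 0.231), Ak1 (-0.27, adjusted p 0.242) and Xpc (0.28, adjusted p 0.13) did not. Without library 3 as well, Perp kept its call (-1.33, adjusted p 0.000666), Ckap2 did not (-0.55, adjusted p 0.0552) and Xpc was called (0.38, adjusted p 0.0401). Without library 5 alone, Gdf15 (0.93, adjusted p 0.0129) and Trp53cor1 (0.65, adjusted p 0.0342) were called higher with dmPGE2, and Ak1 lost its call (adjusted p 0.0866). That fit keeps libraries 6 and 7, the highest of their group for both genes (Gdf15 270 and 393 CPM, Trp53cor1 35.4 and 44.9 CPM). Without libraries 5 to 7, Gdf15 (0.45, adjusted p 0.354) and Trp53cor1 (0.41, adjusted p 0.323) were not called. Libraries 5 to 7 are male, so fits without them also shift the balance of the sexes.

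Markers of other blood cells moved with the same comparison. The summed level of 4 megakaryocyte markers had a median of 404 CPM (range 173 to 824) in irradiated dmPGE2 HSC and 792 CPM (676 to 1538) in irradiated vehicle HSC at 24 h. The 8 neutrophil markers summed to 462 CPM (280 to 800.1) with dmPGE2 and 101.3 CPM (86.9 to 522) with vehicle, and the 4 T and NK cell markers to 70.8 CPM (37.5 to 109) with dmPGE2 and 120 CPM (94.3 to 194) with vehicle. Most of the neutrophil sum was Prtn3, whose median was 256.5 CPM in dmPGE2 libraries and 86.6 CPM in vehicle libraries, and most of the T and NK cell sum was Nkg7, at 64.8 CPM in dmPGE2 libraries and 111.6 CPM in vehicle libraries, while the T cell receptor subunits Cd3e and Cd3g had medians under 1 CPM in both groups. No marker of these 3 lists was at 0 in every library of a group. Their part in the results at 24 h was not tested.

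**Figure D5:**
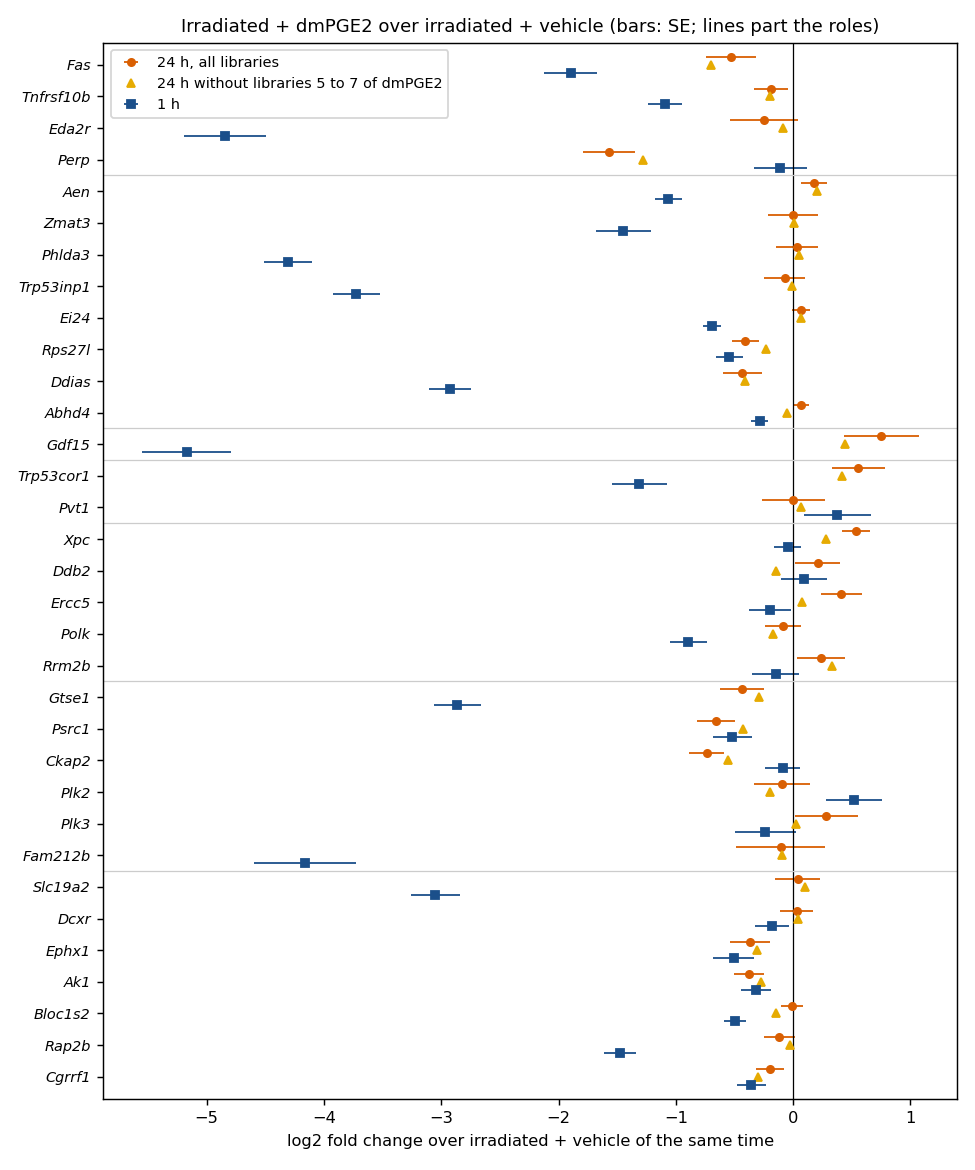
Log2 fold change of each member in irradiated dmPGE2 over irradiated vehicle HSC at 24 h with all libraries, at 24 h without libraries 5 to 7 of irradiated dmPGE2 HSC, and at 1 h; bars are SE, drawn for the fits with all libraries. Gdf15 lies at 0.75 at 24 h and -5.17 at 1 h and Phlda3 at 0.03 and -4.31, whereas Perp lies at -1.57 at 24 h and -0.11 at 1 h.

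The dmPGE2 response of 24 h differed from that of 1 h in 21 of 33 members: it was higher at 24 h in 19 and lower in 2, where 12.9% of all genes were higher and 12.6% lower. The largest differences were Gdf15 at 5.92 (SE 0.48, adjusted p 1.22e-13), Eda2r at 4.59 (SE 0.44, adjusted p 1.25e-11), Phlda3 at 4.34 (SE 0.26, adjusted p 6.99e-19) and Fam212b at 4.05 (SE 0.56, adjusted p 3.32e-07). At 24 h itself these members did not pass the test between dmPGE2 and vehicle: Gdf15 differed by 0.75 (SE 0.32), Eda2r by -0.25 (SE 0.29), Phlda3 by 0.03 (SE 0.18) and Fam212b by -0.11 (SE 0.38). The 2 members with a lower response at 24 h were Perp at -1.46 (SE 0.31, adjusted p 0.000433) and Ckap2 at -0.65 (SE 0.21, adjusted p 0.0185). Without libraries 5 to 7 the response was higher in 16 members and lower in 1: Ckap2 (adjusted p 0.135), Abhd4 (0.0993), Xpc (0.143) and Bloc1s2 (0.0663) lost their call.

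Genes of the pathway outside the 33 members were read from fixed lists. Across all genes at 1 h, 8.65% were higher and 7.31% lower with radiation and vehicle. With dmPGE2 in irradiated HSC, 7.04% were higher and 7.77% lower. Of 7 p53 and feedback genes, 3 rose with radiation and vehicle at 1 h and 4 were lower with dmPGE2, led by Ccng1 (2.75, SE 0.11, with radiation and -2.42, SE 0.14, with dmPGE2) and Mdm2, the ubiquitin ligase of p53 (2.16, SE 0.10, and -1.78, SE 0.12). Trp53 itself averaged 283 ± 34.4 CPM in irradiated dmPGE2 HSC and 320 ± 44.3 CPM in irradiated vehicle HSC at 1 h (SD, n = 8 each), against 324 ± 41.2 CPM in 15 untreated libraries, and was not called in these comparisons. Of 13 other p53 targets, 8 rose with radiation at 1 h, led by Pmaip1 (7.11, SE 0.38) and Cdkn1a (6.31, SE 0.17), and with dmPGE2 7 were lower and 1 higher, led by Sesn2 (-3.80, SE 0.16) and Bbc3 (-3.68, SE 0.19). Cdkn1a, the cell cycle inhibitor p21, had a mean of 131 ± 33.4 CPM with dmPGE2 alone (SD, n = 7), against 8.30 ± 3.87 CPM in untreated HSC (n = 15), a log2 fold change of 3.98 (SE 0.16), so it rose without radiation as Plk2 did. Of the 7 damage sensor genes, 0 were called in either comparison at 1 h. Of 16 other nucleotide excision repair genes, 0 rose and 1 fell with radiation at 1 h, Gtf2h5 at -0.25 (SE 0.08), and the 8 ligands and adaptors of death receptors gave 1 higher and 2 lower, the largest being Tnfsf10 (TRAIL) at -0.58 (SE 0.11). The 6 other translesion synthesis genes gave 2 higher and 1 lower, led by Rev1 at 0.39 (SE 0.10). Beside the shares over all genes, the small counts of the sensor, repair, death receptor and translesion lists are not read as results about those lists.

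At 24 h, 10 of the 13 other targets and 5 of the 7 feedback genes were higher with radiation and vehicle, led by Cdkn1a (6.40, SE 0.17) and Ccng1 (3.29, SE 0.11). With dmPGE2, 0 of the 13 and 1 of the 7 were called. The 1 was Trp53, lower at -0.35 (SE 0.09). Across all genes, 23.3% were higher and 26.5% lower with radiation and vehicle, and 12.4% higher and 11.5% lower with dmPGE2. The dmPGE2 counts of these lists are therefore not read as results about the lists. The other ribonucleotide reductase subunits and polo-like kinases, Rrm1, Rrm2, Plk1 and Plk4, serve dividing cells. All 4 were lower with dmPGE2 in irradiated HSC at 24 h, led by Plk1 at -1.12 (SE 0.22) and Rrm2 at -0.90 (SE 0.18), and all 4 were higher with radiation and vehicle. Rrm2b (0.23, SE 0.20), Plk2 (-0.09, SE 0.24) and Plk3 (0.28, SE 0.27) were not called in that dmPGE2 comparison.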

How the data were processed

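The authors deposited integer read counts per gene and library. Per the submitters' processing notes, the aligner was STAR 2.5.2b, the genome build mm10 and the counter featureCounts of Subread 1.5.1; annotation, strand setting and treatment of reads with several matches were not stated there. Per the labels, cDNA was made with SMART-Seq v4 and libraries with Nextera XT, which mark no strand and no single molecules, so counts are of reads. Genes were filtered with filterByExpr (count minimum 10), scaled by TMM, and tested with edgeR 4.0.16 in R 4.3.3: a robust quasi-likelihood fit of 54 libraries in 6 groups (common dispersion 0.121, 48 residual degrees of freedom), with Benjamini-Hochberg adjustment over 14320 genes and calls at an adjusted p below 0.05. SE is the absolute log2 fold change over the square root of F. CPM use TMM factors and log2 CPM a prior count of 3. DESeq2 1.42.0 was an alternative. The test was checked on simulated counts. P-values measure the spread between libraries. Against the untreated pool, this is the spread between mice only if columns of 1 tag share no source. The members and lists were chosen with earlier results of these data known. Genes given by library are the 2 members of each role with the largest absolute log2 fold change among those called for radiation with vehicle at 1 h, every member called for dmPGE2 at 24 h, and every member called against the direction of most called members; Dcxr and Pvt1 were added after their values were seen. Of each list outside the members, up to 2 genes with the largest change among those called are named, and Trp53 besides. Column names match samples to groups only. Libraries are numbered within a group in table order.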

Additional observations from a re-analysis of the deposited data

Results flagged for a closer look

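Single libraries lay far from the rest of their group in 20 of 165 member and group pairs tested, by the gap to the nearest library over the range of the group; chance alone marks about 1 in 20 groups. Library 5 of irradiated dmPGE2 HSC at 24 h had Perp at 20.5 CPM (low, others 48.1 to 89.5), Phlda3 at 181 CPM (low, others 351 to 553), Gdf15 at 17.9 CPM (low, others 100 to 393), Gtse1 at 85.8 CPM (low, others 229 to 270), Fam212b at 21.1 CPM (low, others 42.3 to 78.7), Slc19a2 at 125 CPM (low, others 192 to 242), Dcxr at 127 CPM (low, others 263 to 490), Ephx1 at 70.2 CPM (low, others 131 to 229) and Rap2b at 35.5 CPM (low, others 51.5 to 62.9). Library 3 of irradiated vehicle HSC at 1 h had Aen at 65 CPM (low, others 122 to 145), Fam212b at 30.2 CPM (low, others 59.6 to 75), Ephx1 at 43.7 CPM (high, others 15.1 to 23.7) and Ak1 at 39.4 CPM (low, others 47.7 to 56.1). Library 4 of irradiated dmPGE2 HSC at 1 h had Gdf15 at 99.9 CPM (high, others 14.2 to 34.2) and Slc19a2 at 99.3 CPM (high, others 25.1 to 37.9). Library 3 of irradiated dmPGE2 HSC at 1 h had Pvt1 at 0.93 CPM (low, others 2.34 to 4.86). Library 1 of irradiated dmPGE2 HSC at 1 h had Psrc1 at 5.83 CPM (low, others 9.18 to 11.7). Library 6 of irradiated dmPGE2 HSC at 1 h had Plk2 at 165 CPM (low, others 426 to 684) and Cgrrf1 at 21.2 CPM (low, others 24.6 to 28). Library 1 of dmPGE2 HSC without radiation had Plk3 at 9.13 CPM (low, others 14.9 to 18.3).

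The radiation response at 1 h, as log2 fold change under dmPGE2 minus that under vehicle, differed by the interaction test of edgeR in 20 members. The differences were Fas -1.68, Tnfrsf10b -2.94, Eda2r -3.06, Aen -1.01, Zmat3 -1.55, Phlda3 -3.53, Trp53inp1 -3.02, Ei24 -0.59, Rps27l -0.53, Ddias -2.60, Abhd4 -0.36, Gdf15 -5.34, Trp53cor1 -1.49, Gtse1 -2.90, Plk2 -2.41, Plk3 -1.55, Fam212b -2.52, Slc19a2 -2.87, Bloc1s2 -0.45 and Rap2b -0.96. A test against a 1.5-fold change (glmTreat) left 10 of these calls. Under the other alternatives, the calls of Fam212b, Bloc1s2 and Rps27l were each lost at least 1 time.

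The response to dmPGE2 in irradiated HSC, as log2 fold change at 24 h minus that at 1 h, differed in 21 members. The differences were Fas 1.37, Tnfrsf10b 0.90, Eda2r 4.59, Perp -1.46, Aen 1.24, Zmat3 1.45, Phlda3 4.34, Trp53inp1 3.65, Ei24 0.76, Ddias 2.49, Abhd4 0.35, Gdf15 5.92, Trp53cor1 1.87, Xpc 0.58, Polk 0.81, Gtse1 2.43, Ckap2 -0.65, Fam212b 4.05, Slc19a2 3.09, Bloc1s2 0.49 and Rap2b 1.36. Without libraries 5 to 7 of irradiated dmPGE2 HSC at 24 h, Abhd4, Xpc, Ckap2 and Bloc1s2 were no longer called.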

How the results depend on the processing

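No called member value changed sign under the alternatives run for its comparison. Values that were not called did in places, for dmPGE2 at 24 h among them Ddb2 (-0.14 without libraries 5 to 7, against 0.21) and Eda2r (0.06 without libraries 3 and 5 to 7, against -0.25). The fits without named libraries, with tags summed, with sex and with the block were run for the comparisons they touch. RLE scaling changed no call, DESeq2 added 6 calls of 297 and the fit with no filter lost 3. DESeq2 gave 2 members higher with dmPGE2 at 24 h, against 1. A test against a 1.5-fold change (glmTreat) left 15 members higher with radiation and vehicle at 1 h, 14 lower with dmPGE2 in irradiated HSC at 1 h, 1 lower with dmPGE2 alone, 10 with a smaller radiation response under dmPGE2, 1 lower with radiation at 24 h, 4 lower at 24 h than at 1 h, 0 higher and 1 lower with dmPGE2 at 24 h, and 1 with a lower dmPGE2 response at 24 h; this follows from the stricter threshold. A fit on the groups of each comparison alone gave 5 members higher with dmPGE2 alone and 0 higher with dmPGE2 at 24 h; the cause was not tested. It lost 8 member calls, among them Eda2r with radiation under dmPGE2 (adjusted p 0.0516), Ephx1 with dmPGE2 at 1 h (0.114), and Rrm2b (0.0807) and Cgrrf1 (0.0707) between 24 h and 1 h. Without libraries 5 to 7 of irradiated dmPGE2 HSC at 24 h, 0 members were higher and 2 lower with dmPGE2, and the response at 24 h was higher than at 1 h in 16 members and lower in 1. Without library 3 as well, 1 was higher and 1 lower with dmPGE2, and the response was higher in 16 and lower in 1. Without library 5 alone, an alternative chosen after seeing the data, 3 were higher. Summing untreated columns of 1 tag, also chosen after seeing the data, left 1 member lower with radiation at 24 h, 22 higher with radiation at 1 h (Psrc1 lost) and 18 with a smaller radiation response under dmPGE2 (Rps27l and Bloc1s2 lost).

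The tag in a column name was tried as a replicate block. It gave 8 members lower with dmPGE2 at 24 h, against 5, and at 1 h it called Perp with radiation (adjusted p 0.0342), Psrc1 for the difference in radiation response (0.0259), Ak1 with dmPGE2 in irradiated HSC (0.0317), Ddias with radiation under dmPGE2 (0.0119) and Rrm2b with dmPGE2 alone (0.0479), and lost Fam212b with dmPGE2 alone (0.054). It could not be fitted for radiation at 24 h or for 24 h against 1 h, where tags differ. Between same-tag libraries of the irradiated groups, deviations from the group mean correlated at 0.081 to 0.347 at 1 h (median 0.146). At 24 h they correlated at -0.004 to 0.081 (median 0.0395). No pairs of different tags were computed as a reference, so these values do not decide whether tags mark pairs. Members under about 3 CPM, such as Fam212b and Eda2r without radiation, are limited by depth.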
